A study of Mus musculus with 12 samples.

Results

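The type IV collagen chains and their basement membrane partners were followed in the aorta of mice treated with pancreatic elastase of the pig (PPE), a protease of elastin whose infusion serves as a model of abdominal aortic aneurysm. The 10 genes were listed by name, but with earlier results of these data known, so they were not chosen blind to them. Col4a1, Col4a2, Col4a3, Col4a4, Col4a5 and Col4a6 encode the chains of type IV collagen. The others were Col18a1 (collagen XVIII), Hspg2 (perlecan), Agrn (agrin) and Nid1 (nidogen-1). All 10 were among 24341 named genes in the count table and had 13 RefSeq accessions there. Of these, 10 accessions of 9 genes had enough counts to be tested, among 12756 tested accessions of 12239 named genes.

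All animals were male C57BL/6J mice of 10 weeks. The saline group (n = 4) had saline infused into the aorta below the renal arteries, and the aorta was taken on day 7. The PPE week 1 group (n = 4) received PPE in that segment instead, with the aorta also taken on day 7, and in the PPE week 2 group (n = 4) it was taken on day 14 after PPE. No saline group of day 14 was analysed here, so PPE and the longer time after surgery cannot be told apart at week 2. Each library held RNA of the bulk aorta, in which fewer cells of a type and less RNA per cell cannot be told apart.

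Basement membranes are thin sheets of matrix that surround smooth muscle cells and underlie endothelium. Type IV collagen is secreted as triple helices of fixed chain composition: α1α1α2, found in nearly every basement membrane, α3α4α5, best known from the kidney glomerulus, and α5α5α6, known from smooth muscle and epithelia. The helices join into a network, which nidogen ties to the laminin network, and perlecan, agrin and collagen XVIII add heparan sulfate chains that hold growth factors.

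The 12 libraries held between 8343313 and 12269131 counts. A precursor of ribosomal RNA (NR_046233) took 36.2 to 49.9% of them in saline, 21.0 to 34.6% at week 1 and 19.5 to 22.1% at week 2, a share that differs with the groups. The smooth muscle markers that define the aortic wall were present: the 8 listed, Acta2 and Myh11 among them, summed to 4582 to 6134 CPM in saline, 1570 to 2809 at week 1 and 4274 to 9593 at week 2. CPM are counts per 1000000 counts after scaling by edgeR's trimmed mean of M values (TMM). Of 12 endothelial markers 9 could be tested, with sums of 690 to 898, 734 to 842 and 764 to 1282 CPM in the same order. The 4 accessions of Pecam1 and the 3 of Tek were at 0. How reads on bases shared by accessions were counted is not given in the sources used here. A count of 0 therefore does not show that a gene with several accessions was absent.

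The 6 type IV collagen genes are known for lying in pairs that start back to back. Coordinates are of mouse build mm10 (GRCm38), from GENCODE's models of the counted accessions. Col4a2 (chromosome 8, 11312805 to 11449287, plus strand, 48 exons) and Col4a1 (chromosome 8, 11198423 to 11312826, minus strand, 52 exons) run away from each other, and their first exons overlap by 22 bases. Col4a3 (chromosome 1, 82586976 to 82722059, plus strand, 52 exons) and Col4a4 (chromosome 1, 82448423 to 82586849, minus strand, 48 exons) are likewise head to head, with 126 bases between the starts of these models. RefSeq's gene records overlap there instead (Col4a4 to 82587034, Col4a3 from 82586921). Col4a6 (chromosome X, 141165403 to 141474076, minus strand, 45 exons) faces Col4a5 (chromosome X, 141475385 to 141689234, plus strand, 53 exons).

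Sequence upstream of the members that moved is printed below, from RefSeq's promoter table for GRCm38.p6, to show what stands before genes that changed at different times. The table had windows for 9 of the 10 genes, and Col4a3 had none. RefSeq's starts are not always those of the models above. The end of the line before the upstream Col18a1 start lies inside the model of NM_009929, which starts at 77166548. Col4a2's line lies inside the first exon of Col4a1, which reaches to 11312826. The end of Col4a6's line lies inside RefSeq's longer Col4a6 record (to 141474095). Each line is read 5′ to 3′ on the strand of the gene. Capitals mark GGGCGG or its reverse complement CCGCCC (a GC box) and CCAAT or its reverse complement ATTGG. The Col4a4 line is the middle of the stretch between the Col4a4 and Col4a3 starts (chr1:82586898-82586927, minus strand), which lies inside RefSeq's longer Col4a4 record, and the others lie at chrX:141474077-141474226 (Col4a6, minus), chr8:11312755-11312784 (Col4a2, plus), chr4:137468553-137468750 (Hspg2, plus), chr4:156197534-156197683 (Agrn, minus), chr10:77166531-77166680 and chr10:77113706-77113855 (Col18a1, minus, before its upstream and its downstream start).
Col4a4: ggaatttaggggtgtgcggtagggaggtgg
Col4a6: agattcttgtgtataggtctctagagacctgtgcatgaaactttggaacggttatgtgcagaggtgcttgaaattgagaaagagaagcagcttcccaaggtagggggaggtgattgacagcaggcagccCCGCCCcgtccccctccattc
Col4a2: cgCCGCCCgaggagctccCCAATttgttgg
Hspg2: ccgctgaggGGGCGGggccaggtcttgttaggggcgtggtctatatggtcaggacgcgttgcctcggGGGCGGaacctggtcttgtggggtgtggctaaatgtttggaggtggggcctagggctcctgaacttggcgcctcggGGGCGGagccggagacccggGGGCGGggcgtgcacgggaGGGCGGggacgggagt
Agrn: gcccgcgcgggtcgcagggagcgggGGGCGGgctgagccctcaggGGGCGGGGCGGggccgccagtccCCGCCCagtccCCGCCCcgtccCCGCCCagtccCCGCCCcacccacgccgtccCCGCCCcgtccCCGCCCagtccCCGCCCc
Col18a1 upstream start: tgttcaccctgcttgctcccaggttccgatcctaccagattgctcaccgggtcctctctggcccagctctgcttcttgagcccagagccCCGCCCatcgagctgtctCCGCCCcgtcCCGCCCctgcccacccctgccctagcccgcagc
Col18a1 downstream start: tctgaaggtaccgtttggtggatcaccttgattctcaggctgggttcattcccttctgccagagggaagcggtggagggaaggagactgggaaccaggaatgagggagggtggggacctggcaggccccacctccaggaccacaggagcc

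Agrn's stretch held 10 GC boxes, 2 of which overlap, and Hspg2's held 5. The stretch before the upstream Col18a1 start held 3, that of Col4a6 1, and that before the downstream Col18a1 start none. Col4a2's short stretch held 1 GC box and 1 CCAAT. Among 32851 RefSeq windows, each 250 bases before to 50 bases after a start, 35.7% held a GC box and 37.4% a CCAAT on either strand. The printed stretches differ in length, so their numbers of GC boxes cannot be ranked, and Col4a2's whole window held 3. Over that whole window GC content was 83.3% for Agrn, 73.7% for Col4a2, 70.3% for Hspg2, 63.3% for Col4a4 and 48.3% for Col4a6. The median over all windows was 52.7%. Agrn has another window at a downstream start, with 61.3% GC and 2 GC boxes, against 12 in the window used here. Neither TATAAA (13.6% of windows) nor the CArG box that binds serum response factor in smooth muscle genes (1.63%) was found in any member's window. These matches describe letters, and factor binding was not measured here.

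Col4a1 had hardly a count. Accession NM_009931 had 0 counts in every library, and NR_133670 had 6 in saline replicate 2, 5 in week 2 replicate 1 and 0 in the rest. Their models cover 6615 and 6487 bases, but only 123 and 17 of these lie outside the other accessions listed, and the accessions of Col4a1 and Col4a5, with few bases of their own, had few counts. No level of Col4a1 is given for this reason. Col4a5 was in a similar position: NM_007736 has no base of its own and 0 counts, and NM_001163155 has 251 bases of its own. How reads on shared bases were counted is not given in the sources used here.

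**Figure D1:**
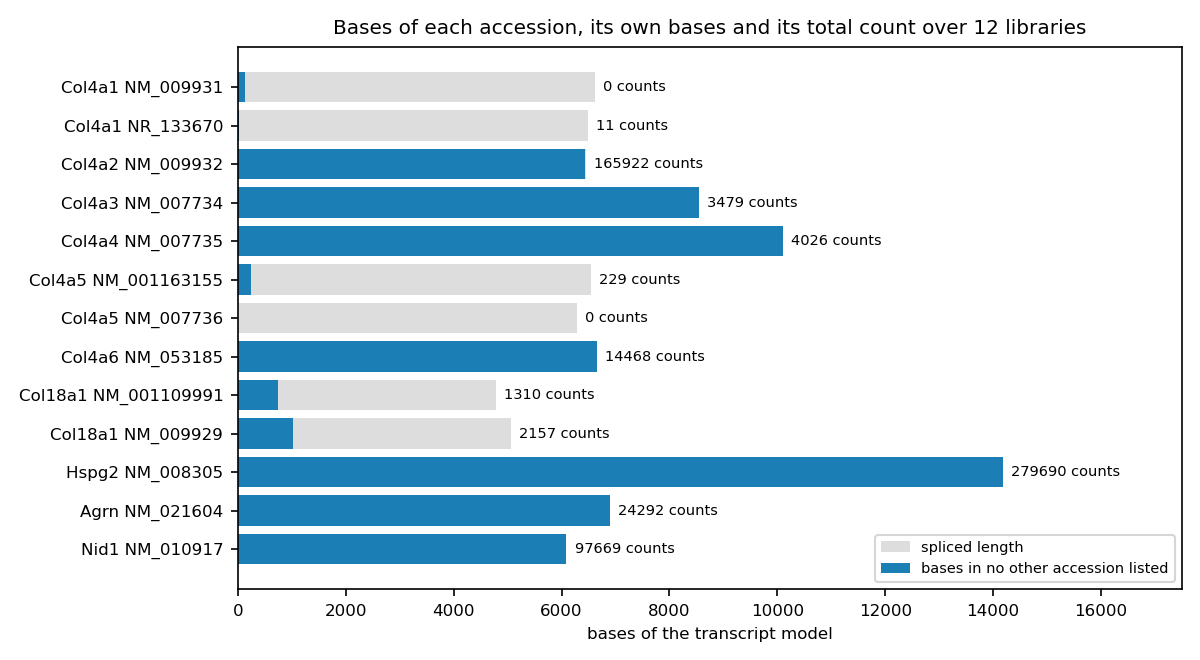
Length of the transcript model of each of the 13 accessions (grey bar, bases) and the part of it shared with no other accession listed (blue bar), with the total count over the 12 libraries beside it. The accessions of Col4a1 and Col4a5 have 251 or fewer bases of their own and at most 229 counts, against 279690 counts for Hspg2.

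At week 1 the rarer chains of type IV collagen were several-fold lower and agrin was higher, while perlecan and the common α2 chain had not passed the test. Of the 9 genes tested, 1 was called higher (Agrn) and 3 lower (Col4a3, Col4a4, Col4a6) than in saline by edgeR's quasi-likelihood test at an adjusted p under 0.05. Over all tested accessions 7.89% were called, 3.98% higher and 3.91% lower. The median log2 fold change of the 9 genes was -0.15 and that of all accessions 0.00. The libraries of the groups did not overlap for 1 gene in the higher and 4 in the lower direction, against 21.1% of all accessions (12.1% higher, 9.01% lower).

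Col4a3, the α3 chain, stood at 35.9, 16.4, 45.3 and 49.8 CPM in saline, at 5.32, 5.31, 6.14 and 11.8 at week 1 and at 50.6, 15.3, 82.7 and 19.6 at week 2. Every week 1 library was below every saline library, and the week 2 libraries spread on both sides of saline. The fold change was -2.37 ± 0.54 (SE) on the log2 scale at week 1, 5.17-fold lower (edgeR quasi-likelihood, Benjamini-Hochberg adjusted p = 0.0186). The call was lost without saline replicate 4, without week 1 replicate 1, 2 or 3, and without the count filter (adjusted p from 0.0575 to 0.0768).

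Col4a4, the α4 chain, had 31.3, 21.3, 32.8 and 60.2 CPM in saline, 7.07, 4.76, 8.83 and 12.5 at week 1 and 53.9, 28.6, 99.8 and 30.8 at week 2. It was lower in all 4 week 1 libraries than in any other, by 4.39-fold against saline (log2 -2.13 ± 0.44, edgeR adjusted p = 0.0108). The log2 ratio of Col4a3 to Col4a4 within a library was 0.00 ± 0.39 (SD, n = 4) in saline, -0.21 ± 0.30 at week 1 and -0.48 ± 0.36 at week 2, differences that the exact two-sided permutation test did not call (p = 0.400 and 0.143 against saline).

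Col4a6, the α6 chain, had the highest level of the 3 rarer chains that could be read (Col4a3, Col4a4 and Col4a6), with 174, 202, 186 and 217 CPM in saline. Week 1 gave 54.1, 23.3, 44.7 and 36.4 CPM, all far below saline, and week 2 gave 158, 125, 211 and 61.7. The week 1 decrease was 4.90-fold (log2 -2.29 ± 0.33, edgeR adjusted p = 0.00213). Its facing neighbour Col4a5, the α5 chain that the α3α4α5 and α5α5α6 helices both need, had 3.31, 3.87, 3.66 and 1.42 CPM in saline and 0.184, 1.55, 0.823 and 0.898 at week 1. These came from 103 and 36 counts in all, and the log2 fold change of -1.82 ± 1.08 did not pass (edgeR adjusted p = 0.363).

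Agrin moved the other way. Agrn (chromosome 4, 156165778 to 156197488, minus strand), a large heparan sulfate proteoglycan first known for clustering acetylcholine receptors at the nerve-muscle synapse, had 155, 147, 133 and 136 CPM in saline. At week 1 it stood at 236, 205, 192 and 210 CPM and at week 2 at 210, 232, 222 and 226, with no overlap between saline and either PPE group. It was 1.48-fold higher at week 1 (log2 0.56 ± 0.11, edgeR adjusted p = 0.00684).

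The abundant members did not pass at week 1. Col4a2, the α2 chain, had 989, 1143, 961 and 1046 CPM in saline and 1225, 1327, 1038 and 1308 at week 1, which overlap in 1 library (log2 0.24 ± 0.14, edgeR adjusted p = 0.354). Hspg2 (chromosome 4, 137468803 to 137570629, plus strand, 97 exons) had 1599, 1771, 1869 and 1699 CPM in saline and 1787, 1745, 1751 and 1902 at week 1 (log2 0.05 ± 0.12, edgeR adjusted p = 0.876). Nid1 (chromosome 13, 13437551 to 13512269, plus strand) had 832, 887, 862 and 805 CPM in saline and 743, 762, 780 and 758 at week 1. Its groups did not overlap, as in 9.01% of all accessions in that direction, but the log2 difference of -0.15 ± 0.10 did not pass (edgeR adjusted p = 0.422) and became 0.13 when libraries were scaled by their size alone.

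**Figure D2:**
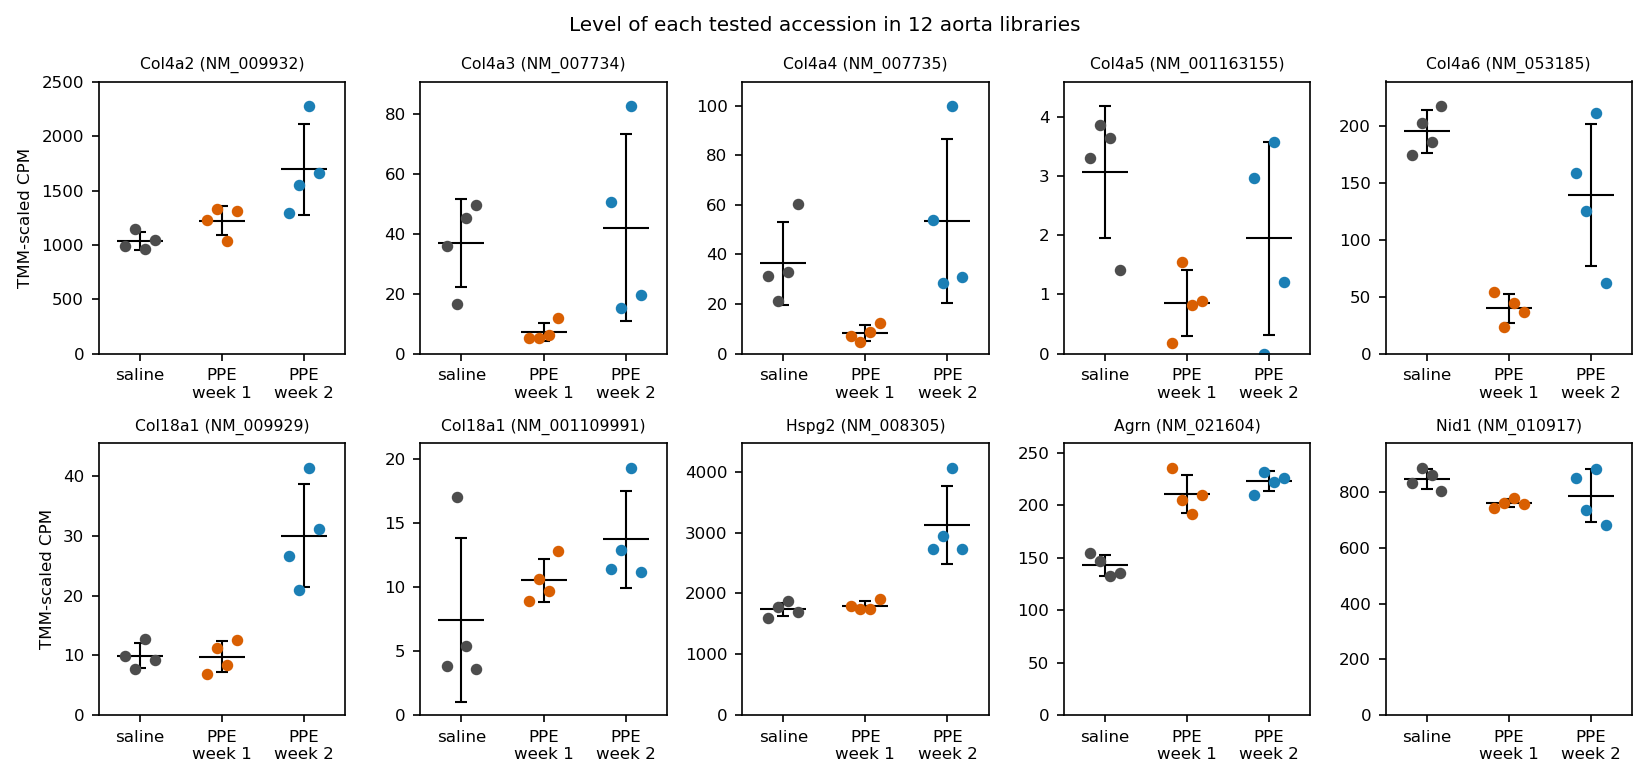
CPM (TMM-scaled) of the 10 tested accessions in the 12 libraries, 1 panel per accession with its own axis from 0. Points are libraries, in the order of replicates 1 to 4, and the bars mark the mean ± SD of each group of 4. Col4a3, Col4a4 and Col4a6 are lowest at week 1, Col18a1 (NM_009929) and Hspg2 are highest at week 2, and Agrn is higher in both PPE groups than in saline.

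At week 2 perlecan, collagen XVIII, the α2 chain and agrin were higher than in saline, and none of the 9 genes was called lower by edgeR (0 lower also at an unadjusted p under 0.05, and 0 by DESeq2 and limma-voom). The call rate of this comparison was 2.65% over all accessions, 1.30% higher and 1.35% lower, against 4 of 9 members higher. Groups did not overlap for the same 4, all higher, against 8.99% of all accessions (4.55% higher, 4.44% lower). The median log2 fold change was 0.55 over the 9 genes and 0.05 over all accessions.

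Hspg2 reached 2735, 2947, 4066 and 2722 CPM at week 2, each above every saline and week 1 library. That was 1.80-fold over saline (log2 0.85 ± 0.12, edgeR adjusted p = 0.00360) and 1.74-fold over week 1 (0.80 ± 0.12, adjusted p = 0.00122). Col4a2 reached 1297, 1551, 2277 and 1658 CPM, also above all saline libraries, 1.64-fold (log2 0.71 ± 0.14, edgeR adjusted p = 0.0137). Leaving out saline replicate 3 (adjusted p = 0.0569), or the 4 libraries of week 1 (0.0668), ended this call. Agrn stayed 1.56-fold above saline (log2 0.64 ± 0.11, edgeR adjusted p = 0.00734) and differed from week 1 by 0.08 ± 0.11 (adjusted p = 0.775). Nid1 stood at 849, 734, 883 and 683 CPM, across the saline range (log2 -0.10 ± 0.10, edgeR adjusted p = 0.677, and 0.38 when scaled by library size alone).

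Col18a1, whose carboxy-terminal fragment is endostatin, was counted as separate accessions with different starts on chromosome 10 (minus strand). NM_009929, which starts upstream at 77166548, had 9.93, 7.75, 12.8 and 9.19 CPM in saline, 6.88, 11.3, 8.31 and 12.5 at week 1 and 26.6, 21.0, 41.4 and 31.1 at week 2. Every week 2 library lay above the other 8, and the increase was 3.02-fold over saline (log2 1.60 ± 0.30, edgeR adjusted p = 0.0108).

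NM_001109991, which starts downstream at 77113705, had 3.83, 17.0, 5.36 and 3.62 CPM in saline, 8.90, 10.6, 9.65 and 12.8 at week 1 and 11.4, 12.9, 19.3 and 11.2 at week 2. Saline replicate 2 stood far above the other 3 saline libraries and inside the PPE range. The week 2 difference of 0.89 ± 0.45 (log2) did not pass (edgeR adjusted p = 0.337), but without that library it was 1.68 ± 0.37 (adjusted p = 0.0343). The week 1 difference was 0.50 ± 0.45 (adjusted p = 0.600) with that library and 1.30 ± 0.37 (adjusted p = 0.0526) without it. Within a library, the log2 ratio of NM_009929 to NM_001109991 was 0.69 ± 1.20 (SD, n = 4) in saline, -0.13 ± 0.20 at week 1 and 1.11 ± 0.32 at week 2. Saline, with 1.33, 1.23 and 1.30 in replicates 1, 3 and 4 and -1.11 in replicate 2, overlapped both PPE groups (exact two-sided permutation p = 0.143 and 0.800). The PPE groups did not overlap (exact permutation p = 0.0286, adjusted over 15 tests 0.0857). Of the 1019 bases that only NM_009929 covers, 838 are at its 3′ end, so this ratio does not separate the starts.

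**Figure D3:**
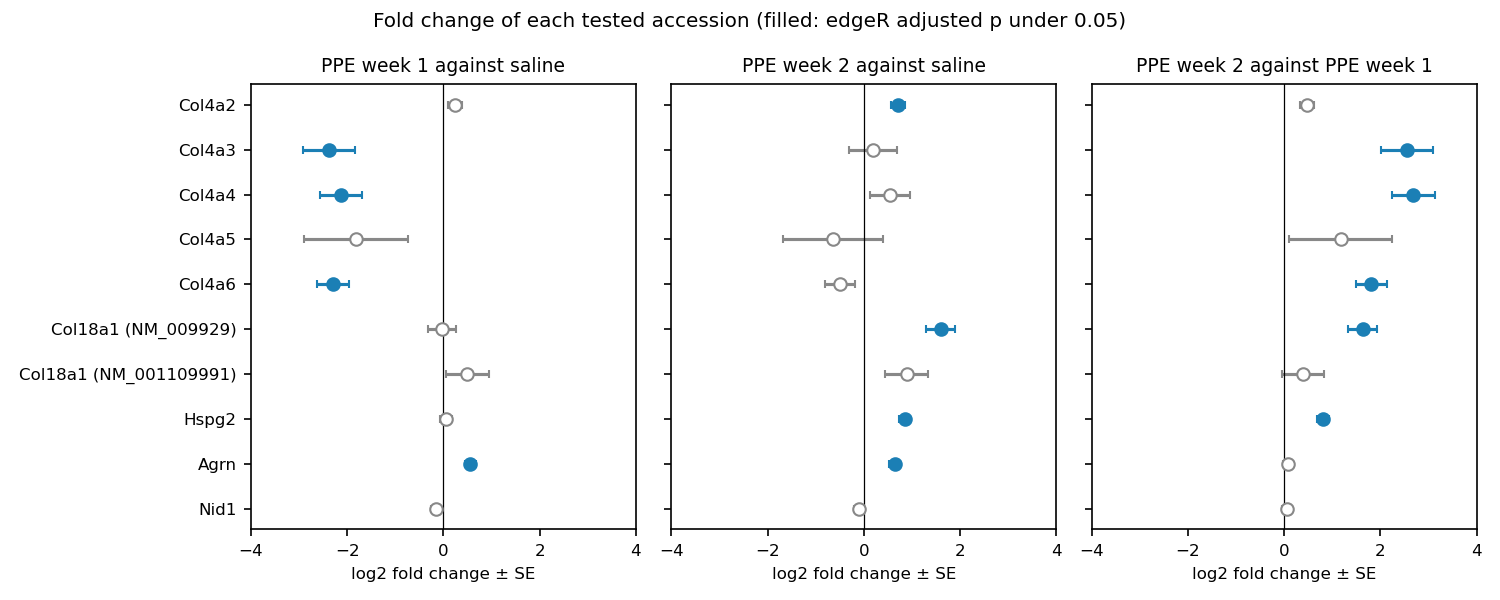
Log2 fold change ± SE of each tested accession in the 3 comparisons, from edgeR. Filled points passed an adjusted p under 0.05: 4 genes at week 1 (Col4a3, Col4a4, Col4a6 lower, Agrn higher), 4 at week 2 against saline and 5 at week 2 against week 1, all higher.

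Between the PPE groups the log2 fold change was above 0 for all 9 tested genes. For Nid1 (0.05 ± 0.10) and Agrn (0.08 ± 0.11) it was smaller than its SE. Of 9 genes, 5 were called higher at week 2 than at week 1 (Col4a3, Col4a4, Col4a6, Col18a1 and Hspg2) and 0 lower (0 also at an unadjusted p under 0.05), where 6.59% of all accessions were called, 3.77% higher and 2.82% lower. The 5 also had no overlap between groups, as had 15.9% of all accessions (7.24% higher, 8.68% lower). The median log2 fold change was 1.17 for the 9 genes and 0.02 over all accessions. This comparison and the one of week 1 with saline share the week 1 libraries.

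Col4a4 was 6.42-fold higher at week 2 than at week 1 (log2 2.68 ± 0.45, edgeR adjusted p = 0.00369). Col4a3 was 5.89-fold higher (2.56 ± 0.54, adjusted p = 0.0148, and 0.0518 to 0.0696 without week 1 replicate 1, 2 or 3), Col4a6 3.50-fold (1.81 ± 0.32, adjusted p = 0.00620) and Col18a1 3.09-fold (1.63 ± 0.30, adjusted p = 0.00453), all by edgeR. Col4a2 missed the threshold (log2 0.47 ± 0.14, edgeR adjusted p = 0.0579) and passed it by DESeq2 (0.0401) and limma-voom (0.0434).

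Against saline, the week 2 levels of the rarer chains had not passed the test in either direction. The log2 differences were 0.19 ± 0.50 for Col4a3, 0.55 ± 0.42 for Col4a4 and -0.49 ± 0.31 for Col4a6 (edgeR adjusted p = 0.903, 0.578 and 0.487). Replicates 1 and 3 were high and replicates 2 and 4 low for the α3 and α4 chains, a spread of 15.3 to 82.7 CPM for Col4a3. Without replicate 3 the Col4a3 difference turned to -0.37. For Col4a5, week 2 gave 2.98, 0, 3.59 and 1.22 CPM, and the library at 0 allows up to 0.287 CPM (3 counts, counting error only).

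Compared per length, the order of the members differed between the groups. In saline, Col4a2 had 160 ± 12.5 CPM per 1000 bases (SD, n = 4), Nid1 139 ± 5.86 and Hspg2 122 ± 8.05. All Col4a2 libraries (149 to 177) were above those of Nid1 (132 to 146), while the lowest Nid1 and the highest Hspg2 library both stood at 132. Col4a6 followed with 29.3 ± 2.82 and Agrn with 20.7 ± 1.45 CPM per 1000 bases, and Col4a3 (4.31 ± 1.73) and Col4a4 (3.60 ± 1.65) did not differ beyond their spread. At week 1 Agrn (27.9 to 34.3) stood above Col4a6 (3.51 to 8.13), the reverse of saline. At week 2 Hspg2, at 220 ± 45.2, stood above Nid1, at 129 ± 15.5 CPM per 1000 bases, without overlap.

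Ratios within a library do not depend on how libraries are scaled. The log2 ratio of Nid1 to Col4a2 was -0.29 ± 0.10 (SD, n = 4) in saline, -0.68 ± 0.18 at week 1 and -1.08 ± 0.34 at week 2, so nidogen-1 was lower relative to the α2 chain in every PPE library than in any saline library. The ratio of Col4a6 to Col4a2 was -2.41 ± 0.11, -5.00 ± 0.62 and -3.71 ± 0.73 in the same order, again without overlap with saline. For each of these 4 differences from saline the exact two-sided permutation p was 0.0286, the smallest that 4 against 4 libraries allow, and 0.0857 adjusted over 15 tests, so none passed. Hspg2 to Col4a2, at 0.75 ± 0.15, 0.56 ± 0.15 and 0.89 ± 0.15, overlapped in every comparison (exact permutation p from 0.0571 to 0.257).

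The authors' deposited table for week 1 lists log2 fold changes of -2.17 for Col4a3, -1.97 for Col4a4, -2.24 for Col4a6 and 0.54 for Agrn, with adjusted p of 1.68e-09, 3.15e-08, 6.38e-26 and 0.000107. In the authors' deposited table for week 2, Hspg2 is at 0.81, Col18a1 (NM_009929) at 1.36, Col4a2 at 0.67 and Agrn at 0.62, with adjusted p of 0.000232, 0.000262, 0.00907 and 0.00120. The same 4 genes passed in each comparison as above.

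Markers of smooth muscle and mural cells were read beside the members. Over all accessions 3.91% were called lower at week 1 and 1.30% higher at week 2 against saline. From week 1 to week 2, 3.77% were called higher. Of the 8 smooth muscle markers 5 were lower at week 1 (median log2 -1.68), none was called at week 2 against saline (0 also at an unadjusted p under 0.05; median 0.08) and 5 were higher at week 2 than at week 1 (edgeR, adjusted p under 0.05). The 4 tested of 7 pericyte and mural markers (Cspg4, Rgs5, Kcnj8, Notch3) summed to 3492 to 4728 CPM in saline, 718 to 1308 at week 1 and 2300 to 5523 at week 2, with Pdgfrb and Abcc9 at 0 counts. Rgs5 made up most of that sum, at 3531 CPM on average in saline, 735 at week 1 and 2763 at week 2. Pdgfrb and Abcc9 have 2 and 5 accessions, so their 0 counts do not show that they were absent. At week 1 Rgs5 and Kcnj8 were called lower and 0 of the 4 higher (0 also at an unadjusted p under 0.05), with Notch3 at a log2 difference of 0.08 (edgeR adjusted p = 0.893). At week 2 Cspg4 (log2 1.00, adjusted p = 0.0116) and Notch3 (1.03, adjusted p = 0.0250) were called above saline, as none of the rarer chains was, and Cspg4, Rgs5 and Notch3 were called above week 1. Week 2 replicate 3 was highest of its group in 9 of the 10 tested accessions of the members. The same library had the highest smooth muscle sum (9593 CPM, against 4966, 5369 and 4274) and mural sum (5523, against 2801, 3089 and 2300). The part of mural cells in the collagen values was not tested. Without that library, 4 genes were still called higher at week 2 than in saline and 5 higher than at week 1.

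Of 8 macrophage markers, 2 were called higher at week 1 (Cd68 and Cd14), where 3.98% of all accessions were called higher. At an unadjusted p under 0.05, 7 were higher (median log2 of the list 1.11). Only Mrc1 was not, at a log2 difference of 0.08 (edgeR adjusted p = 0.859). From week 1 to week 2, 2 were called lower (Cd68 and Lyz2), against 2.82% of all accessions. At an unadjusted p under 0.05, 6 were lower there (median -0.80). The list had sums of 1992 to 2460 CPM in saline, 3780 to 4878 at week 1 and 1222 to 3181 at week 2. In week 2 the sum was higher in replicates 2 and 4 (2849 and 3181 CPM), where Col4a3 and Col4a4 were low, than in replicates 1 and 3 (1287 and 1222). Of 8 fibroblast markers, Dcn, Lum, Pi16 and Dpt were called lower at week 1, Dcn, Lum and Dpt lower at week 2 against saline, and Pi16 and Gsn higher at week 2 than at week 1. Over all accessions 3.91%, 1.35% and 3.77% were called in the directions of these fibroblast calls, in the same order. The fibroblast sums were made up mostly of Col1a1 and Col1a2. They were 34082 to 44791 CPM in saline, 42921 to 55438 at week 1 and 33579 to 51475 at week 2. Of the remaining lists, 1 of 5 tested T and NK cell markers was called higher at week 1 (Ncr1), against 3.98% of all accessions. Of these 5, 4 were higher at an unadjusted p under 0.05. Against saline, 1 of 4 sympathetic neuron markers was called higher at week 2 (Th), where 1.30% of all accessions were. All 4 were higher at that unadjusted p, with sums of 11.1 to 25.5 CPM in saline and 47.4 to 402 at week 2. From week 1 to week 2, 1 of 9 endothelial (Vwf) and 1 of 3 Schwann cell markers (S100b) were called higher, against 3.77%. Of 4 cell cycle markers, Mki67 was called lower there, against 2.82%, and all 4 were lower at that unadjusted p. Brown adipocyte sums ran from 0.192 to 541 CPM within week 2. The part of these cells in the members' values was not tested either. Since α3α4α5 collagen is best known from kidney, kidney markers were read too. Umod and Slc34a1 had 0 counts and Nphs1 had 1 over all 12 libraries. Slc34a1 and Nphs1, with 1 accession each, were thus at or near 0. Umod has 2 accessions, so its 0 counts do not show that it was absent. Podxl, which endothelium also makes, lay at 59.7 to 174 CPM.

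**Figure D4:**
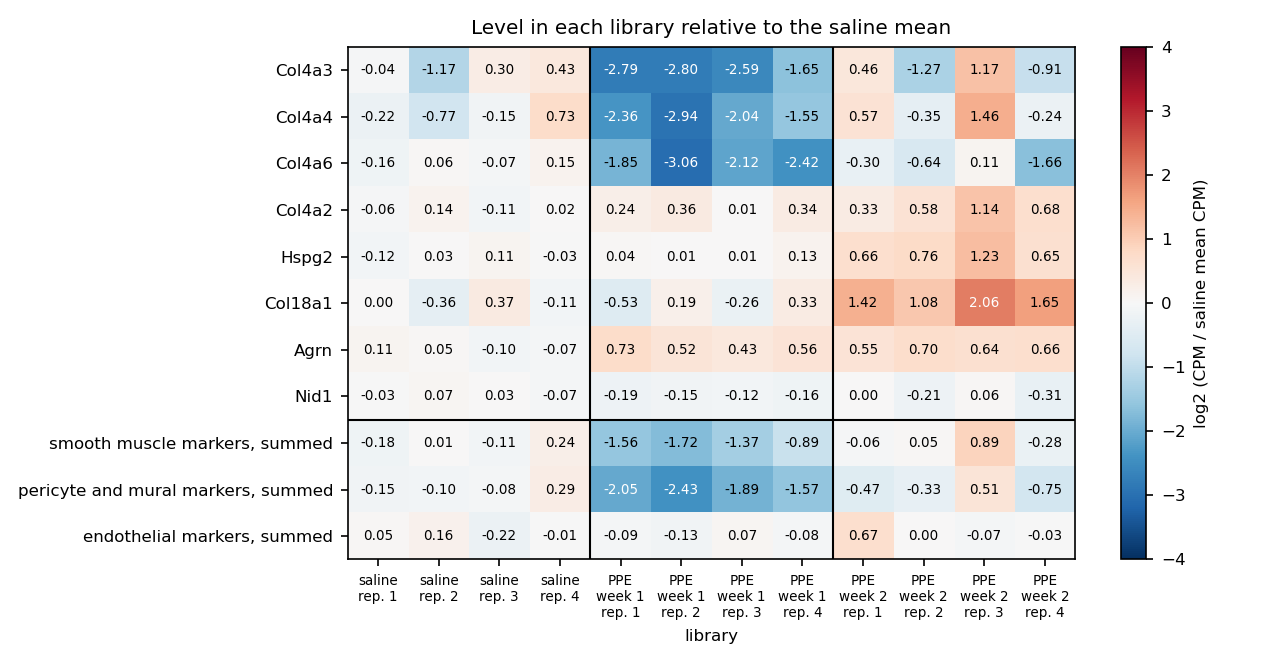
Log2 of the CPM in each library over the saline mean, for 8 members and, below the line, the summed CPM of the smooth muscle, pericyte and mural, and endothelial markers. Columns are libraries in the order of groups and replicates. Col4a3, Col4a4 and Col4a6, and the smooth muscle and mural sums are negative in all week 1 libraries, while Hspg2 and Col18a1 are positive in all week 2 libraries.

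The likeness of the members' levels over libraries was described too. Over the 12 libraries and among 6923 genes with a mean of at least 10 CPM, the genes most like Col4a3 were Heyl, a Notch target of vascular smooth muscle (Pearson r = 0.960, Spearman rho = 0.993), Col4a4 (0.960 and 0.986) and Zim1 (0.956 and 0.951). After each group's mean was taken out, r with Heyl was 0.873 and with Col4a4 0.910, and without the 2 libraries farthest from the median of Col4a3 it was 0.963 and 0.944. With Col4a6 r was 0.842, and with Col4a2 0.181. Once group means were removed, r with Col4a3 was 0.681 for Col18a1, 0.553 for Nid1 and 0.544 for Hspg2. It was 0.477 for Col4a6, 0.217 for Col4a2 and -0.384 for Agrn. Within groups Col4a6 was thus not nearer to Col4a3 than Col18a1, Nid1 and Hspg2 were, but nearer than Col4a2 and Agrn. Most like Col4a2 were Tln1 (talin-1, 0.945), Gcn1 (0.918) and Hspg2 (0.889). Hspg2 was most like Pkdcc (0.954), Dnajc4 (0.946) and Lrp5 (0.938), and Col18a1 most like Bcl9l (0.957), Hspg2 (0.930) and Dnajc4 (0.926). Without group means, r was 0.753 between Col4a2 and Hspg2, 0.534 between Col18a1 and Hspg2 and 0.458 between Col18a1 and Col4a2. These are descriptions without a test, and the libraries share group, depth and cell composition.

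Some other basement membrane proteins were called too. Of 22 listed partners 16 could be tested, of which 2 rose and 5 fell at week 1 by edgeR (median log2 -0.13), where 3.98% of all accessions were called higher and 3.91% lower, and 9 were not called. Against saline, 3 rose at week 2 and 0 fell (3 lower at an unadjusted p under 0.05, median 0.20), where 1.30% and 1.35% of all accessions were called. From week 1 to week 2 5 rose and 1 fell (median 0.26), against 3.77% and 2.82%. Lamb2, the laminin β2 chain, fell from 391 ± 43.0 to 243 ± 52.0 CPM (SD, n = 4) at week 1 (log2 -0.69 ± 0.19, adjusted p = 0.0373) and stood at 618 ± 186 at week 2. Lama5, the laminin α5 chain, was at 246 ± 23.4 CPM in saline, 174 ± 36.2 at week 1 and 394 ± 75.7 at week 2 (week 2 against saline 0.68 ± 0.16, adjusted p = 0.0310). Lama1, the laminin α1 chain of early embryos, had 2 counts over the 4 saline libraries, 363 over week 1 and 188 over week 2, where replicate 1 had 0. Nid2, the second nidogen, rose at both times (log2 0.69 and 0.66, edgeR adjusted p = 0.0128 and 0.0300), unlike Nid1. The other partners that fell at week 1 were Lama2 (-1.19), Lama3 (-1.25), Lamc3 (-2.40) and Smoc2 (-0.79). The gene that fell from week 1 to week 2 was Lamb1 (-0.47, edgeR adjusted p = 0.0286), and beside Lama5, Lamb2, Lama3 (1.51) and Lamc3 (3.20) the netrin Ntn4 rose (1.12, adjusted p = 0.0376).

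Enzymes that fold, modify and cross-link type IV collagen were mostly not called. Of 14 listed 13 were tested, and 1 call at week 1 is near the 7.89% called over all accessions. At week 2 against saline 2 of the 13 were called lower, where 1.35% of all accessions were. From week 1 to week 2, 3 of the 13 were called lower, where 2.82% of all accessions were. The single gene that rose at week 1 was Plod3, a lysyl hydroxylase that also glycosylates collagen (185 ± 35.6 against 108 ± 22.5 CPM, SD, n = 4, log2 0.77 ± 0.16, edgeR adjusted p = 0.00855). At week 2, 2 fell against saline, P4hb, a subunit of prolyl hydroxylase (542 ± 42.8 against 789 ± 75.2 CPM, log2 -0.54 ± 0.10, adjusted p = 0.0111), and Plod2 (-1.56, adjusted p = 0.0376). Those lower at week 2 than at week 1 were P4hb, Plod3 and Loxl2, a lysyl oxidase that cross-links the amino-terminal domain of type IV collagen (-0.71 ± 0.14, adjusted p = 0.00690). The list's medians were -0.04, -0.10 and -0.16 in the 3 comparisons, against 0.00, 0.05 and 0.02 over all accessions.

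For heparan sulfate, the sugar that perlecan, agrin and collagen XVIII carry, 17 of 19 listed genes of chain synthesis and editing were tested. By edgeR, 2 rose at week 1 and 0 fell (0 lower also at an unadjusted p under 0.05), and 2 rose and 1 fell at week 2 against saline, where 7.89% and 2.65% of all accessions were called. From week 1 to week 2, 0 rose (0 higher also at an unadjusted p under 0.05) and 1 fell, Hs2st1 (log2 -0.71 ± 0.19, adjusted p = 0.0318). Over all accessions 3.77% were called higher and 2.82% lower in that comparison. Xylt2, which adds the xylose that begins the linker, rose from 16.7 ± 6.71 to 33.4 ± 2.36 CPM at week 1 and to 40.2 ± 6.87 at week 2 (SD, n = 4, edgeR adjusted p = 0.0288 and 0.0183). Extl3, which starts the chain, rose from 91.1 ± 6.76 to 140 ± 6.46 and 137 ± 16.2 CPM (adjusted p = 0.00804 and 0.0208). Hs2st1, which sulfates the uronic acid, fell at week 2 from 74.6 ± 15.5 to 41.9 ± 7.85 CPM (adjusted p = 0.0257).

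Among 9 tested of 13 other heparan sulfate proteoglycans, 2 rose at week 1: Gpc1 (glypican-1, 65.9 ± 10.2 against 29.4 ± 4.71 CPM, edgeR adjusted p = 0.00481) and Sdc3 (syndecan-3, 481 ± 58.6 against 210 ± 32.4, adjusted p = 0.0223). Over all accessions 3.98% were called higher at week 1. None of the 9 was called at week 2 against saline, with 2 higher at an unadjusted p under 0.05. Over all accessions 1.30% were called higher and 1.35% lower in that comparison. From week 1 to week 2, 1 rose, Gpc3 (edgeR adjusted p = 0.0486), where 3.77% of all accessions were called higher. The list's median log2 fold changes were 0.26, -0.02 and -0.10 in the 3 comparisons. Of 12 receptors of basement membrane proteins 7 were tested. Of these 3 fell at week 1 (median log2 of the list -0.45), where 3.91% of all accessions were called lower. Bcam, a laminin α5 receptor, fell from 156 ± 15.2 to 61.0 ± 13.6 CPM (adjusted p = 0.00756) and Itga7, a laminin-binding integrin of muscle, from 88.2 ± 15.5 to 43.4 ± 8.40 (adjusted p = 0.0103). Both rose from week 1 to week 2, to 182 ± 76.0 and 121 ± 39.6 CPM (adjusted p = 0.00348 and 0.00122). In that comparison 2 of the 7 receptors were called higher, against 3.77% of all accessions. Itgb1, the shared β1 integrin chain, fell from 1295 ± 212 to 946 ± 33.4 CPM at week 1 (adjusted p = 0.0460).

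**Figure D5:**
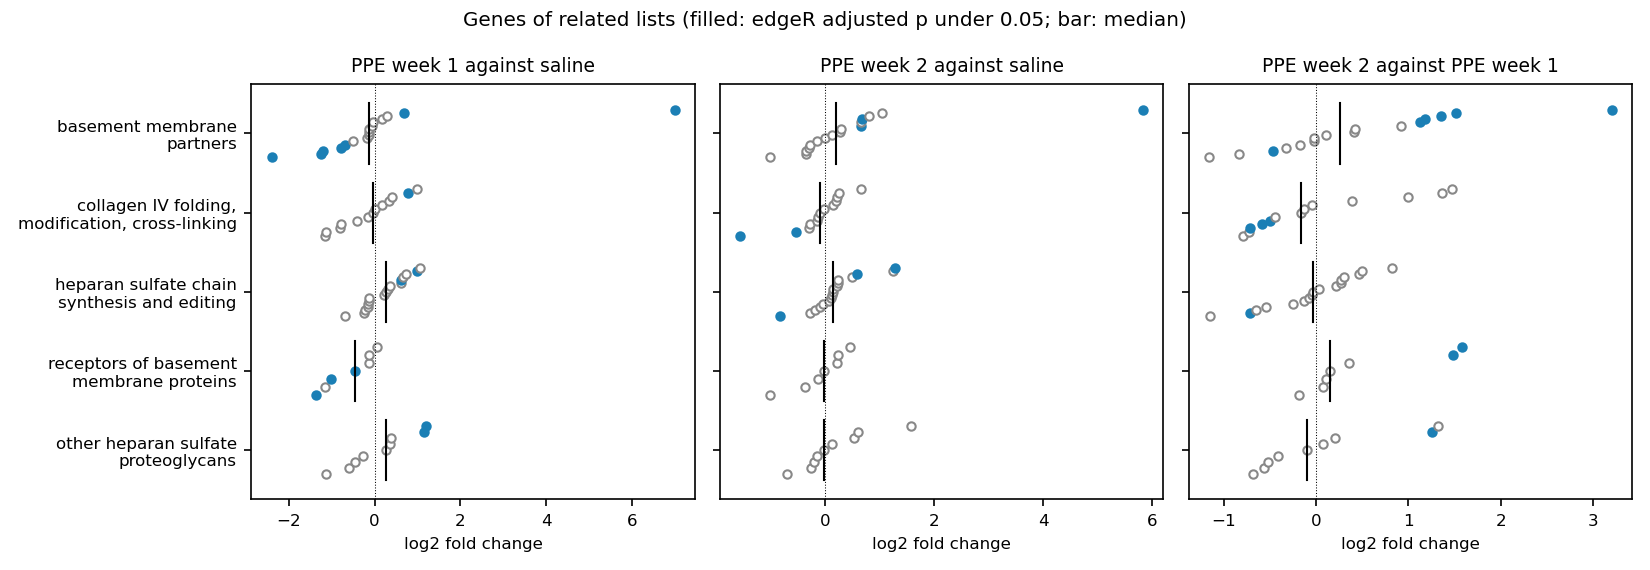
Log2 fold change of each tested gene of 5 related lists in the 3 comparisons, from edgeR. Each point is a gene, filled where the adjusted p was under 0.05, and the bar is the list's median. The 3 called receptors lie left of 0 at week 1, and the point far to the right is Lama1, which had 2 counts in saline.

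The ribosomal RNA share of a library moved with the groups. With the share of NR_046233 as a term in the edgeR fit, the members' log2 fold changes at week 1 were -2.59 for Col4a3, -2.51 for Col4a4, -2.29 for Col4a6 and 0.63 for Agrn, but none of the 4 passed (adjusted p from 0.0531 to 0.122). At week 2 against saline the log2 fold changes with that term were 1.00 for Col4a2, 1.64 for Col18a1, 0.96 for Hspg2 and 0.78 for Agrn, no smaller than without it, and none passed (0.604 to 0.758), while 1 of 5 passed between week 2 and week 1. That share was lower in every PPE library than in any saline library, so its effect and that of the group cannot be told apart.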

How the data were processed

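RNA-seq was made from the aortas of 12 mice with the Illumina TruSeq v2 kit, which does not keep strand, so overlapping genes on opposite strands cannot be told apart. The authors deposited raw counts per RefSeq accession, and, in tables of their own, log2 fold changes and p-values of each PPE group against saline. Per the submitters' processing notes, bcl2fastq, DESeq2 and build mm10 were used; the aligner and counter were not given in the sources used here.

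Of 34755 accessions, RefSeq's gene table for GRCm38.p6 named 34424, GENCODE a further 192, and 139 had no symbol. A gene is represented by its tested accession with the highest mean CPM. Counts were tested with edgeR 4.0.16 (R 4.3.3): filterByExpr, TMM, robust quasi-likelihood fit with 1 mean per group over all 12 libraries, and Benjamini-Hochberg adjustment over 12756 accessions at 0.05. The fit was also run on data simulated with its own estimated spread, which cannot show how well it suits the real counts. The biological coefficient of variation was 0.512, and totals of 8343313 to 12269131 counts set the precision. Alternatives were DESeq2 1.42.0, limma-voom (limma 3.58.1), other scalings, no filter, summed accessions, halved counts, a replicate block and leaving out each library. Halved counts were tried because 66.0 to 75.6% of counts of 2 to 20 were even. Replicates differed by more than sampling noise (chi-square per feature 16.1 to 100). Levels per length used GENCODE spliced lengths.

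Named from each related list were the 3 tested genes with the smallest adjusted p, and others that passed. The 3 genes most like Col4a2, Col4a3, Hspg2 and Col18a1 were named by Pearson r of log2 CPM (prior count 2); Col4a2 and Col4a3 took the place of Col4a1 after its counts were seen. For the same reason ratios to Col4a1 were replaced by 5 others, tested exactly. The members and lists were chosen with earlier results of these data known. One of the listed kidney markers is not reported here.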

Additional observations from a re-analysis of the deposited data

Results flagged for a closer look

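Among 30 groups of 4 libraries, 3 had 1 library far from the others, and chance alone gives about 1 in 20 groups. Col4a3 stood at 11.8 CPM in week 1 replicate 4, against 5.31 to 6.14 in the other week 1 libraries, and that library was also highest of its group for the smooth muscle sum (2809 CPM). Col18a1 NM_001109991 stood at 17.0 CPM in saline replicate 2, the saline library with the largest share of the ribosomal RNA precursor (49.9%). Hspg2 stood at 4066 CPM in week 2 replicate 3.

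The difference from the shared saline group was not the same at week 2 and week 1 for 5 genes. With 1 saline group this is the comparison of week 2 with week 1 given above (edgeR adjusted p from 0.00122 to 0.0148), and PPE and time after surgery cannot be told apart in it. On the log2 scale week 2 was higher by 2.56 for Col4a3, 2.68 for Col4a4, 1.81 for Col4a6, 1.63 for Col18a1 and 0.80 for Hspg2. For the 3 collagen IV chains a decrease at week 1 was no longer called at week 2, while Col18a1 (NM_009929) and Hspg2 were called above saline at week 2 and not at week 1. For Col18a1 NM_001109991 the week 1 difference was 0.50, or 1.30 without saline replicate 2 (adjusted p = 0.0526). Causes were not tested.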

How the results depend on the processing

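Of 132 counts of called members recomputed under other settings, 127 stayed within 1.5 times the value reported. The 127 include counts of 0 that stayed at 0, and drops from 3 to 2 where the Col4a3 call was lost. With libraries scaled by size alone, 2 genes were higher at week 1, Col4a2 having joined Agrn (log2 0.52, adjusted p = 0.0401). Under that scaling the median log2 fold change of all accessions was 0.28 at week 1, 0.54 at week 2 and 0.23 between them. With TMM these medians were 0.00, 0.05 and 0.02. With the share of NR_046233 as a term, chosen after seeing the data, 0 members were higher and 0 lower at week 1, 0 higher at week 2 and 1 higher at week 2 than at week 1 (Hspg2, adjusted p = 0.0492). Leaving out 1 library at a time gave 1 to 1 higher and 2 to 3 lower at week 1, 3 to 4 higher at week 2 and 4 to 6 higher between the weeks. The Col4a3 call at week 1 was lost without saline replicate 4 (adjusted p = 0.0589), without week 1 replicates 1, 2 or 3 (0.0670, 0.0768, 0.0597) and without the count filter (0.0575), and its call from week 1 to week 2 without week 1 replicates 1, 2 or 3 (0.0603, 0.0696, 0.0518). Of 594 fold changes, called or not, 563 kept their status, 22 lost a call and 9 gained one, and no called one changed sign. The 563 include results that were not called in either fit, so the 22 are not out of 594 calls. The cause was not tested.

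Same-numbered libraries did not deviate together (r from -0.0881 to 0.0353), and the labels give no pairing. A small effect shared by same-numbered libraries could be missed this way. With the replicate block the members called were 1 higher and 3 lower at week 1, 4 higher at week 2 and 5 higher between the weeks, as without it. Ratios to Col4a1 and their alternatives were not run, for want of counts. The few counts of Col4a5, Col4a1 and both Col18a1 accessions limit what depth can show for them.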
